A study of Homo sapiens with 12 samples.

Results

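The genes described here are 9 calcium pumps and store channels, chosen by name, and all 9 were found among the 16271 genes of the count table. They are the pumps ATP2A2, ATP2B1, ATP2B4 and ATP2C1, the inositol trisphosphate (IP3) receptors ITPR1, ITPR2 and ITPR3, the store calcium sensor STIM1 and the entry channel ORAI1. Their RNA was counted in HaCaT cells, an immortalised human keratinocyte line, of 2 genotypes. Cells labelled VDR KO (vitamin D receptor knockout) or wild type were grown in DMEM with 10% fetal bovine serum at 5% CO2, and either received 1,25(OH)2D3, the hormonally active vitamin D metabolite, over 8 h or did not. The groups were VDR KO treated, VDR KO untreated, wild type treated and wild type untreated, with 3 libraries of total RNA in each. The sources used here do not give the hormone's dose, its vehicle, the VDR edit or how many knockout clones were used, so genotype and clone cannot be told apart. The labels name 3 replicates on a 6-well plate and do not say whether each was its own culture, so the spread that p-values rest on here may be technical.

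A resting cell keeps cytosolic calcium far below that outside the cell and inside its stores. Pumps drive this gradient: SERCA pumps such as ATP2A2 fill the endoplasmic reticulum, the ATP2C1 pump fills the Golgi apparatus, and the plasma membrane pumps ATP2B1 and ATP2B4 move calcium out of the cell. IP3, made by phospholipase C, opens the ITPR channels of the endoplasmic reticulum, and when the store runs low STIM1 senses the loss and opens ORAI1 in the plasma membrane. In the epidermis a rise of extracellular calcium drives keratinocyte differentiation and desmosome assembly. Mutations of ATP2A2 cause Darier disease and mutations of ATP2C1 cause Hailey-Hailey disease, both blistering or scaling skin disorders in which keratinocytes lose adhesion.

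Total counts per library ranged from 11485031 to 15992792. VDR RNA was counted in every library. In CPM (counts scaled to a common library total, with the TMM factors described below) it was 80.5 to 86.3 in treated and 73.1 to 81.1 in untreated VDR KO cells. It was 67.4 to 74.6 CPM in treated wild type cells and 99.7 to 107 CPM in untreated wild type cells. Since the position of the edit is not known, the level of this RNA does not check the label. The 24-hydroxylase CYP24A1, a classic target of the receptor, averaged 12.2 CPM in treated and 16.9 CPM in untreated VDR KO cells, against 1676 CPM in treated and 48.0 CPM in untreated wild type cells. All 10 keratinocyte markers checked were in the table, and their summed level was 1806 to 2274 CPM in the VDR KO libraries against 4210 to 5205 CPM in the wild type libraries. The markers did not all move together: DSG3, a desmosomal cadherin, was higher in VDR KO cells (1.57-fold treated and 2.07-fold untreated, both called), and TP63 did not pass between treated genotypes (adjusted p = 0.214), while ITGA6, ITGB4 and SFN, among the most abundant, were lower in VDR KO cells in both treatments. Of 11 markers of other cell types, PTPRC, CD3E, PECAM1, MLANA and MYH11 were absent from the table, and the other 6 summed to 14.2 to 18.0 CPM in VDR KO libraries against 17.8 to 36.2 CPM in wild type libraries. Fewer cells of a type and less RNA per cell cannot be told apart in such bulk samples, and the part of these markers in the genotype differences below was not tested. Untreated wild type replicate 3 stood apart from its group (32.5 on the first principal component, against 54.3 and 55.7 for the other 2 libraries). Values without it are given beside many, but not all, of the results it changes.

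Promoters were read for the 2 genes that rose with treatment in wild type cells, ATP2A2 and ATP2B1, and for 2 of the 3 genes that fell in VDR KO cells in both treatments, ITPR3 and STIM1. Each sequence is the RefSeq promoter on GRCh38.p14, 250 bases before to 50 bases after the annotated start, on the strand of the gene. For these 4 genes the RefSeq starts lie 66 to 1137 bases from the GENCODE gene starts. Capitals mark matches on either strand to the GC box (GGGCGG), to the palindrome CACGTG, which reads the same on both strands, or to a nuclear receptor half-site. The half-sites searched were AGGTCA, its variant GGTTCA, and a further variant, AGTTCA. Matches to different motifs do not overlap in these windows. The boxes CCAAT and, as the core of the promoter element of that name, TATAAA were also searched. The ATP2A2 window is chr12:110280366-110280665 (plus strand), the ATP2B1 window chr12:89709317-89709616 (minus strand), the ITPR3 window chr6:33621072-33621371 (plus strand) and the STIM1 window chr11:3855414-3855713 (plus strand).
ATP2A2: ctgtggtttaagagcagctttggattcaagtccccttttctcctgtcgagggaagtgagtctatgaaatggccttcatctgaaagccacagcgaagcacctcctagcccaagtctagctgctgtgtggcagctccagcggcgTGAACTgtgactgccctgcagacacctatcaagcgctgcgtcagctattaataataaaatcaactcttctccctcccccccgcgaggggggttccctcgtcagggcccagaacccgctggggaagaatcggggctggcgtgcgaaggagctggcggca
ATP2B1: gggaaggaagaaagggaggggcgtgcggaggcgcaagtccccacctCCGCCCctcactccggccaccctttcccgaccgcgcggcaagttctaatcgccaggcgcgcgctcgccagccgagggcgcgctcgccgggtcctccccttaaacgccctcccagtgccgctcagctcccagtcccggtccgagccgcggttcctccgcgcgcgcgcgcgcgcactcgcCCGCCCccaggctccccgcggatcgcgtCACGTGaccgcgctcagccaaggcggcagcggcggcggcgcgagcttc
ITPR3: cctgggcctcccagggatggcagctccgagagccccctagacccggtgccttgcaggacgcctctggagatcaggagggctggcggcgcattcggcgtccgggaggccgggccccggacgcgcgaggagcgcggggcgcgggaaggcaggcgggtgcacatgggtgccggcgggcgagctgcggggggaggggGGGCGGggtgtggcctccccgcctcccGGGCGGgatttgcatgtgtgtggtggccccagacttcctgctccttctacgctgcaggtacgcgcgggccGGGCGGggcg
STIM1: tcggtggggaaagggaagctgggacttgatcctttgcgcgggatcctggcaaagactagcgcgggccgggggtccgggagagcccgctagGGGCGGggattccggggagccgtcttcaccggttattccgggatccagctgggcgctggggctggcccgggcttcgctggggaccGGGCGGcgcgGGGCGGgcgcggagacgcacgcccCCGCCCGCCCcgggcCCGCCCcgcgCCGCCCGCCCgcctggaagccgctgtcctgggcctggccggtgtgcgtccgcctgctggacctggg

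These 4 windows differ in base composition. ATP2A2 had 57% G and C with 14 CpG, close to the median of 58.7% and 14 CpG over 35116 RefSeq promoters. The other windows were richer, with 75.3% and 48 CpG in ATP2B1, 76% and 33 CpG in ITPR3, and 76.7% and 38 CpG in STIM1. GC boxes numbered 8 in STIM1, of which some overlap, 3 in ITPR3 and 2 in ATP2B1. No GC box was found in the ATP2A2 window, and 45% of all promoters held at least 1. The CCAAT and TATAAA letters, held by 34.6% and 11.5% of all promoters, were in none of the 4 windows. ATP2A2 held 1 AGTTCA half-site, on the reverse strand 108 bases before the start, a motif in 10.4% of promoters. The other half-site forms, AGGTCA (13.8% of promoters) and the GGTTCA form (8.62%), were in none of the 4. ATP2B1 held CACGTG just after its start, as did 7.26% of promoters. A pair of such half-sites 3 bases apart, the classic arrangement for the vitamin D receptor with its partner RXR, was in 0.037% of promoters and in none of the 7 member promoters matched in the table. These are matches of letters in short windows and not binding sites.

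With treatment of wild type cells, ATP2A2 and ATP2B1 RNA rose and the other 7 genes did not pass the test. In VDR KO cells none of the 9 passed. Between genotypes the differences were larger: VDR KO cells had more ATP2B1, ITPR2 and, by a smaller margin, ATP2C1 RNA and less ITPR3, STIM1 and ORAI1 RNA, with and without the hormone. ITPR1 RNA was near the limit of detection in all groups. Levels above and below are CPM scaled by TMM (a factor per library that offsets differences in composition). Tests are edgeR's quasi-likelihood F test fitted over 14676 genes with Benjamini-Hochberg adjustment, and a gene is called at an adjusted p below 0.05. All 9 genes passed the filter on low counts. Each log2 fold change is followed by ± its approximate standard error (SE), from 3 libraries in each group.

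**Figure D1:**
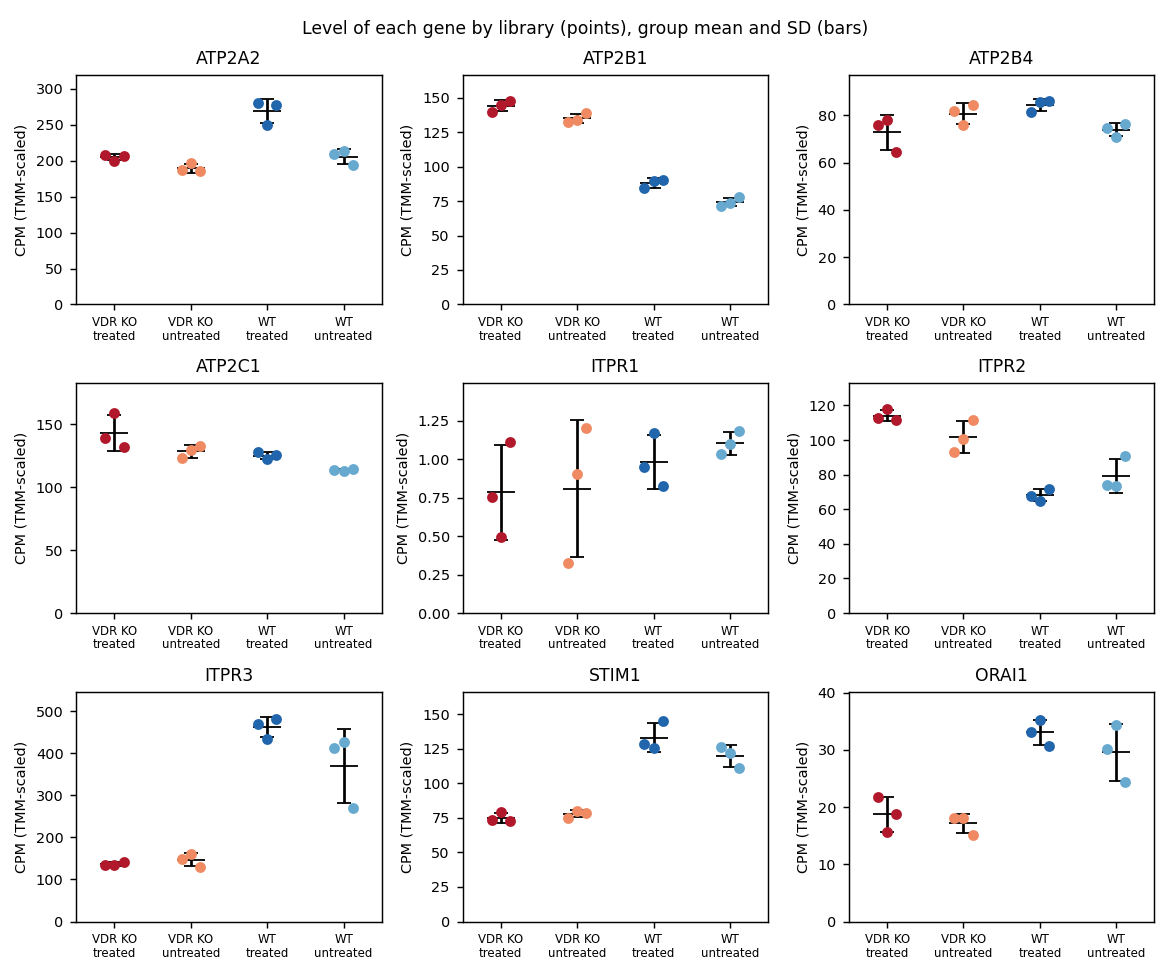
Level of each of the 9 genes in CPM scaled by TMM (vertical axis, from 0) in VDR KO treated, VDR KO untreated, wild type treated and wild type untreated cells. Points are libraries, and bars are the group mean and SD (n = 3). ATP2A2 in treated wild type cells lies above the other groups (250.2 to 281 CPM), ITPR3 is lower in all 6 VDR KO libraries, and untreated wild type replicate 3 is the low ITPR3 point at 269 CPM.

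ATP2A2 (ENSG00000174437, chr12:110280756-110351093, plus strand, GRCh38) encodes SERCA2, the pump that refills the endoplasmic reticulum. It had 208, 200.2 and 207 CPM in treated VDR KO libraries, 187, 197 and 185 CPM in untreated VDR KO libraries, 281, 250.2 and 277 CPM in treated wild type libraries, and 210.0, 214 and 194 CPM in untreated wild type libraries. The treated wild type libraries were above every other library. In wild type cells the means were 269 ± 16.7 CPM treated and 206 ± 10.7 CPM untreated (SD, n = 3), a log2 fold change of 0.39 ± 0.07 (1.31-fold, adjusted p = 0.000994). In VDR KO cells all treated libraries lay above all untreated ones, by 0.11 ± 0.07 on the log2 scale, and this did not pass the test (adjusted p = 0.361). VDR KO cells fell below wild type cells when treated (log2 fold change -0.39 ± 0.07, adjusted p = 6.96e-05). Untreated, the difference of -0.12 ± 0.07 did not pass (adjusted p = 0.137), it was called without untreated wild type replicate 3 (-0.17, adjusted p = 0.0291), and its sign turned when libraries were scaled by their totals alone.

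ATP2B1 (ENSG00000070961, chr12:89588049-89709300, minus strand) encodes PMCA1, the most widely expressed plasma membrane pump, which in the intestine serves vitamin D dependent calcium absorption. It had 139.7, 144 and 148 CPM in treated VDR KO libraries, 132, 134 and 139 CPM in untreated VDR KO libraries, 84.2, 89.8 and 90.3 CPM in treated wild type libraries, and 71.7, 73.5 and 77.7 CPM in untreated wild type libraries. No 2 groups overlapped, and all 6 VDR KO libraries were above all 6 wild type libraries. The gene rose with treatment in wild type cells by 0.25 ± 0.07 on the log2 scale (1.19-fold, adjusted p = 0.0121). This call was kept when any 1 library was left out, and was lost when the wild type groups were fitted alone (0.25, adjusted p = 0.0538). In VDR KO cells the change was 0.09 ± 0.06 (adjusted p = 0.414), and the difference of the 2 responses did not pass (adjusted p = 0.232). VDR KO cells were above wild type cells both treated (0.71 ± 0.06, 1.63-fold, adjusted p = 3.23e-08) and untreated (0.86 ± 0.07, 1.82-fold, adjusted p = 5.60e-09).

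ATP2B4 (ENSG00000058668, chr1:203626561-203744081, plus strand) encodes PMCA4, the second plasma membrane pump of these cells. It had 75.9, 78.2 and 64.4 CPM in treated VDR KO libraries, 81.6, 76.0 and 84.5 CPM in untreated VDR KO libraries, 81.5, 85.7 and 86.1 CPM in treated wild type libraries, and 74.5, 71.0 and 76.4 CPM in untreated wild type libraries. Treated libraries lay above untreated ones in wild type cells, while the groups overlapped in VDR KO cells. Neither change passed the test (VDR KO -0.15 ± 0.08, adjusted p = 0.283, and wild type 0.19 ± 0.08, adjusted p = 0.0885). The wild type change was called without untreated wild type replicate 3 (0.22, adjusted p = 0.0449). Treated VDR KO cells fell below treated wild type cells (-0.21 ± 0.08, adjusted p = 0.0211), while untreated cells did not pass (0.13 ± 0.08, adjusted p = 0.161). Scaled by library totals alone these calls changed places, with 0.25 in untreated cells past the threshold and -0.11 in treated cells short of it.

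ATP2C1 (ENSG00000017260, chr3:130850595-131016712, plus strand) encodes SPCA1, the Golgi pump for calcium and manganese. It had 139, 159 and 132 CPM in treated VDR KO libraries, 123.1, 129.6 and 133 CPM in untreated VDR KO libraries, 128, 122 and 125 CPM in treated wild type libraries, and 114, 113 and 115 CPM in untreated wild type libraries. The groups overlapped in VDR KO cells and not in wild type cells, and the log2 changes with treatment were of like size (VDR KO 0.16 ± 0.07, adjusted p = 0.228, and wild type 0.14 ± 0.07, adjusted p = 0.179). The gene was higher in VDR KO cells treated (0.19 ± 0.07, adjusted p = 0.0239) and untreated (0.18 ± 0.07, adjusted p = 0.0401). Leaving out 1 library in turn kept the call in 9 of 12 fits for treated and 8 of 12 fits for untreated cells.

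ITPR3 (ENSG00000096433, chr6:33620365-33696574, plus strand) encodes the type 3 IP3 receptor, a store channel prominent in epithelial cells. It had 135, 133 and 141 CPM in treated VDR KO libraries, 149, 161 and 131 CPM in untreated VDR KO libraries, 469, 435 and 481 CPM in treated wild type libraries, and 413, 426 and 269 CPM in untreated wild type libraries. Every wild type library was above every VDR KO library, and untreated wild type replicate 3 was the lowest of its genotype. VDR KO cells fell below wild type cells by 1.76 ± 0.14 on the log2 scale when treated (3.38-fold lower, adjusted p = 4.00e-08) and by 1.33 ± 0.14 when untreated (2.52-fold lower, adjusted p = 9.35e-07). Without untreated wild type replicate 3 the untreated difference was -1.52, and the range over 12 such refits was -1.52 to -1.22. Treatment gave -0.10 ± 0.14 in VDR KO cells (adjusted p = 0.711) and 0.32 ± 0.14 in wild type cells (adjusted p = 0.0991). The wild type value was 0.14 without untreated replicate 3, and was called without untreated replicate 2 (0.44, adjusted p = 0.0339).

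ITPR2 (ENSG00000123104, chr12:26336515-26833198, minus strand) encodes the type 2 IP3 receptor, which binds IP3 with the highest affinity of the family. It had 113, 118 and 112 CPM in treated VDR KO libraries, 93.2, 101 and 111 CPM in untreated VDR KO libraries, 67.9, 64.8 and 71.5 CPM in treated wild type libraries, and 74.2, 73.4 and 90.7 CPM in untreated wild type libraries. All VDR KO libraries were above all wild type libraries, and treated lay above untreated in VDR KO cells but below it in wild type cells. VDR KO cells were higher treated (0.75 ± 0.09, 1.68-fold, adjusted p = 7.19e-07) and untreated (0.36 ± 0.09, adjusted p = 0.00161). Neither treatment change passed (VDR KO 0.16 ± 0.09, adjusted p = 0.283, and wild type -0.22 ± 0.09, adjusted p = 0.0757). The wild type value was -0.11 without untreated replicate 3, and was called without untreated replicate 2 (-0.28, adjusted p = 0.0432).

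ITPR1 (ENSG00000150995, chr3:4493345-4847840, plus strand), the type 1 receptor that predominates in neurons, had 10, 6 and 14 counts in treated VDR KO libraries, 5, 12 and 20 counts in untreated VDR KO libraries, 12, 15 and 11 counts in treated wild type libraries, and 12, 12 and 14 counts in untreated wild type libraries. Group means were 0.785 to 1.10 CPM, and its groups overlapped in every treatment and genotype comparison. With SEs of about 0.40, changes of that size and well above it could go unseen at this depth. Its log2 differences between genotypes were -0.31 treated (adjusted p = 0.5001) and -0.44 untreated (adjusted p = 0.332).

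STIM1 (ENSG00000167323, chr11:3854527-4093210, plus strand), the calcium sensor in the store membrane, had 73.1, 79.0 and 72.9 CPM in treated VDR KO libraries, 75.0, 80.3 and 78.5 CPM in untreated VDR KO libraries, 128, 125.6 and 145 CPM in treated wild type libraries, and 126.5, 122 and 111 CPM in untreated wild type libraries. All wild type libraries were above all VDR KO libraries, and treated and untreated libraries overlapped in both genotypes. VDR KO cells fell by 0.83 ± 0.08 on the log2 scale when treated (1.77-fold lower, adjusted p = 3.49e-08) and by 0.62 ± 0.08 when untreated (1.54-fold lower, adjusted p = 1.59e-06). Treatment changes did not pass (VDR KO -0.06 ± 0.08, adjusted p = 0.718, and wild type 0.15 ± 0.08, adjusted p = 0.147).

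ORAI1 (ENSG00000182500, chr12:121626550-121642677, plus strand, matched to the annotation by symbol) forms the pore that STIM1 opens. It had 21.8, 15.7 and 18.9 CPM in treated VDR KO libraries, 18.0, 18.2 and 15.2 CPM in untreated VDR KO libraries, 33.2, 35.2 and 30.7 CPM in treated wild type libraries, and 30.2, 34.3 and 24.3 CPM in untreated wild type libraries. Genotypes did not overlap and treatments did. VDR KO cells fell by 0.81 ± 0.13 when treated (1.76-fold lower, adjusted p = 2.89e-05) and by 0.79 ± 0.13 when untreated (1.73-fold lower, adjusted p = 5.42e-05). Treatment changes were 0.13 ± 0.14 in VDR KO cells (adjusted p = 0.597) and 0.16 ± 0.13 in wild type cells (adjusted p = 0.400), and the wild type value was 0.04 without untreated replicate 3.

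Some of these genes share sequence with annotated neighbours, and the sources used here do not say whether reads were counted by strand. ITPR3 shares 1025 exonic bases (10.4% of its exon length) with MNF1, now named UQCC2, on the opposite strand. MNF1 held fewer counts than ITPR3 (29.9% of them on average over all 12 libraries, a share not split by genotype). The log2 fold change of MNF1 for treatment of wild type cells was -0.26 ± 0.08 (edgeR adjusted p of 0.0271), against 0.32 for ITPR3. Untreated VDR KO cells were below wild type cells for both genes, by -0.33 ± 0.08 for MNF1 (adjusted p = 0.00174) and -1.33 for ITPR3. Between treated genotypes MNF1 gave -0.10 ± 0.08 and did not pass (adjusted p = 0.287), against -1.76 for ITPR3. ATP2C1 shares 188 exonic bases with ASTE1 on the opposite strand, which was also higher in VDR KO cells (0.42 ± 0.11 treated, adjusted p = 0.00301, and 0.31 ± 0.11 untreated, adjusted p = 0.0233). ATP2B1 shares 82 exonic bases with RP11-591N1.1, a noncoding gene on the opposite strand with 1.92% of its counts, which was likewise higher in VDR KO cells (1.32 ± 0.26 treated, adjusted p = 0.000201, and 1.61 ± 0.27 untreated, adjusted p = 5.49e-05). The part of shared reads in these changes was not tested. STIM1's counts were nearly those of MIR4687, a short microRNA gene inside its span, which held 98.13 to 100% of the STIM1 count in every library.

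**Figure D2:**
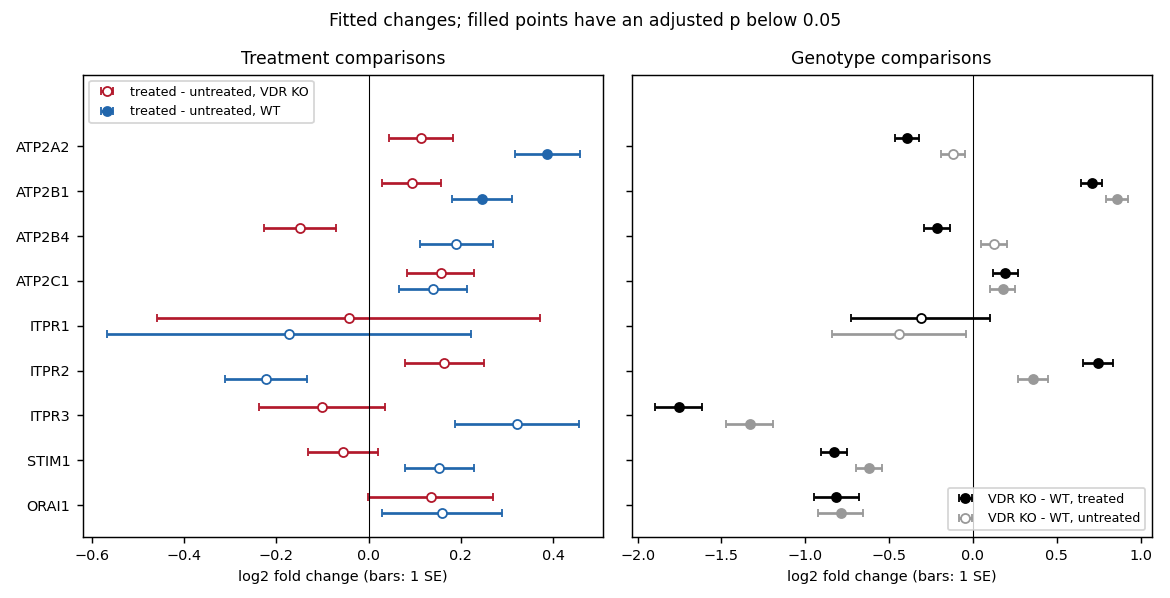
Fitted log2 fold changes of the 9 genes (horizontal axis) with bars of 1 SE, for treatment on the left (VDR KO red, wild type blue) and genotype on the right (treated black, untreated grey). Filled points have an adjusted p below 0.05. Only ATP2A2 and ATP2B1 are filled on the left, for wild type cells, and ITPR3 lies farthest from 0 on the right (-1.76 treated, -1.33 untreated).

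Counted over the group, 2 of 9 genes rose with treatment in wild type cells, against 24.5% of all tested genes called (11.5% higher and 13% lower), so the members' share of 22.2% was near the background. In this comparison 6 of the 9 did not overlap between groups, against 39.2% of all genes. In VDR KO cells edgeR called none of the 9, against 2.55% of all genes (0.913% higher and 1.64% lower). There 1 of the 9, ATP2C1, had an unadjusted p below 0.05, DESeq2 and limma also called none, and ATP2A2, ATP2B1 and ITPR2 did not overlap between groups, against 31.6% of all genes. Between treated genotypes 3 rose and 5 fell, against 75.9% of all genes called (38.4% higher and 37.4% lower), and between untreated genotypes 3 rose and 3 fell, against 69.7% (35.5% higher and 34.2% lower). The groups did not overlap for 8 of the 9 genes between treated genotypes, against 80.9% of all genes, and for 6 of the 9 between untreated genotypes, against 69.1%. The median log2 fold change of the 9 was 0.09 for treatment in VDR KO cells and 0.16 in wild type cells, and -0.31 and -0.12 between treated and untreated genotypes, against medians near 0 over all genes. Each median is the value of 1 gene, in that order ATP2B1, ORAI1, ITPR1 and ATP2A2, none called in that comparison. The SE of the ITPR1 value was 0.41. Between genotypes members were called in both directions, so these medians do not show a shift of the whole group. The treatment and genotype comparisons share groups, so these values are not independent of each other.

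The difference of the treatment responses, VDR KO minus wild type, was called for 3 of the 9 genes, against 26.3% of all genes (13.8% higher and 12.5% lower). ATP2A2 gave -0.27 ± 0.10 (adjusted p = 0.0496) and ATP2B4 gave -0.34 ± 0.11 (adjusted p = 0.0326), the response being lower in VDR KO cells for both. ITPR2 gave 0.39 ± 0.12 (adjusted p = 0.0291). The changes of ATP2B4 and of ITPR2 each had opposite signs in the 2 genotypes. For neither gene was the change within a genotype called in the main fit. Leaving out 1 library in turn kept the call of ATP2A2 in 4, of ATP2B4 in 7 and of ITPR2 in 6 of 12 fits. ITPR3 gave -0.42 ± 0.19 and did not pass (adjusted p = 0.122).

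Levels of different genes were set beside each other only per kilobase of exon (CPM divided by the union exon length in GENCODE v29). In treated VDR KO cells ATP2C1 (16.8), ATP2B1 (15.2) and ATP2A2 (14.9) came first with each overlapping the next, followed by ITPR3 (13.9), STIM1 (10.5), ITPR2 (8.95), ORAI1 (8.30) and ATP2B4 (7.49 CPM per kb), of which the last 3 overlapped in turn. In untreated VDR KO cells ATP2C1 (15.1), ITPR3 (14.9), ATP2B1 (14.2) and ATP2A2 (13.8) overlapped in turn, STIM1 (10.9) stood below them, and ATP2B4 (8.30), ITPR2 (7.98) and ORAI1 (7.57 CPM per kb) overlapped in turn. In wild type cells ITPR3 came first, at 46.8 ± 2.43 CPM per kb treated and 37.4 ± 8.82 CPM per kb untreated (SD, n = 3), and its lowest library was above all other genes in both groups. It was followed in treated wild type cells by ATP2A2 (19.6) and STIM1 (18.7), which overlapped, then ATP2C1 (14.7) and ORAI1 (14.6), which overlapped, ATP2B1 (9.28), ATP2B4 (8.68) and ITPR2 (5.34 CPM per kb). In untreated wild type cells STIM1 (16.8) and ATP2A2 (14.98) overlapped, as did ATP2C1 (13.3) and ORAI1 (13.1), and ATP2B1 (7.83) and ATP2B4 (7.61), with ITPR2 below them (6.23 CPM per kb). ITPR1 was last in all groups, at 0.0242 to 0.0340 CPM per kb. The order depends on the length used: with the longest transcript, ATP2A2 came first in both VDR KO groups and in treated wild type cells (36.0, 33.3 and 47.3 CPM per kb).

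**Figure D3:**
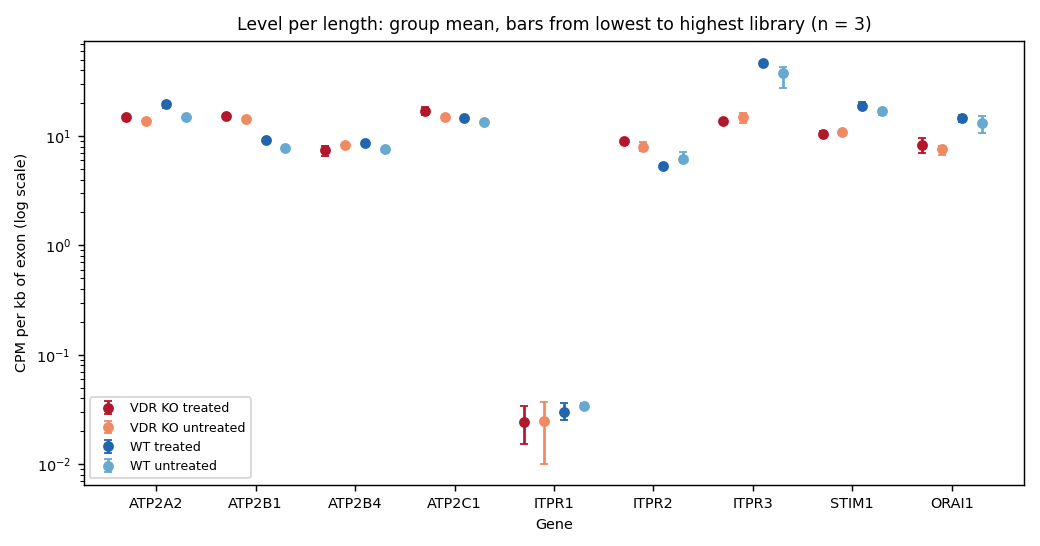
Level per kilobase of exon of the 9 genes in each group (log axis, CPM per kb). Points are group means and bars run from the lowest to the highest of 3 libraries. ITPR3 lies among the pumps in VDR KO cells (13.9 treated, 14.9 untreated) and is highest in wild type cells (46.8 treated, 37.4 untreated), and ITPR1 is far below all others.

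Within families, the genotypes did not overlap in the makeup of the IP3 receptors. Per kilobase, ITPR3 made up 60.7 ± 1.27% of the 3 receptors' RNA in treated and 64.9 ± 4.15% in untreated VDR KO cells, against 89.7 ± 0.16% in treated and 85.04 ± 5.04% in untreated wild type cells (SD, n = 3). The untreated wild type libraries had 87.7%, 88.2% and, in replicate 3, 79.2%. ITPR2 made up nearly all the rest, with 39.2% and 35.0% in treated and untreated VDR KO cells, against 10.2% and 14.9% in treated and untreated wild type cells. ITPR1 was at or below 0.109% in the mean of every group. ATP2B1 made up 66.96% and 63.1% of the 2 plasma membrane pumps in treated and untreated VDR KO cells, against 51.7% and 50.7% in treated and untreated wild type cells. The groups of 3 libraries did not overlap between genotypes for either share, giving an exact two-sided permutation p of 0.1, the smallest that 3 against 3 allows (0.133 adjusted over 8 tests). Treatment gave the same p for the ITPR3 share in wild type cells and for the ATP2B1 share in VDR KO cells, so it is not particular to genotype.

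**Figure D4:**
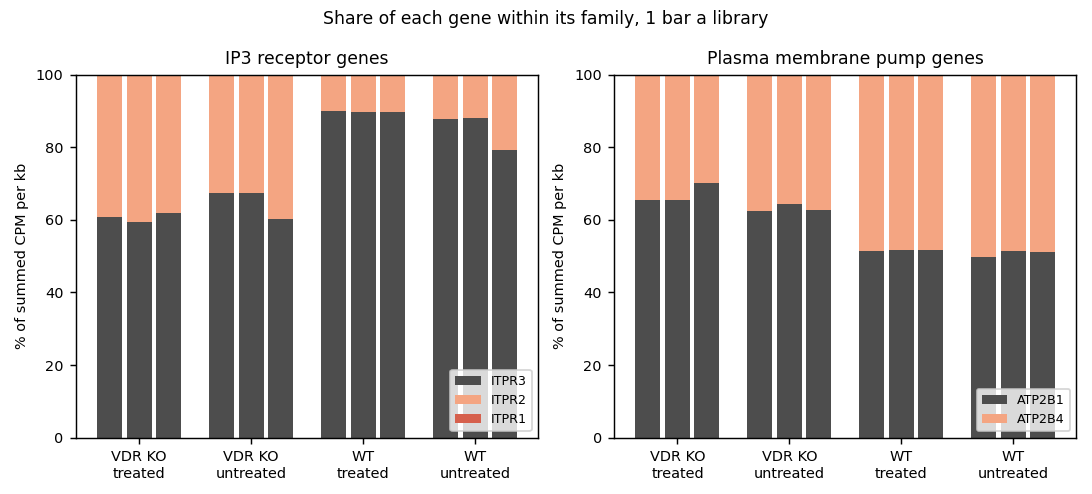
Share of each member within its family per kilobase of exon (percent, vertical axis), with 1 stacked bar for each library, for the IP3 receptors and for the 2 plasma membrane pumps. ITPR3 lies at 60.7% and 64.9% in VDR KO treated and untreated cells and at 89.7% and 85.04% in wild type treated and untreated cells, and ITPR1 is too small to be seen.

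The other genes of calcium handling were counted in 8 lists, of which 67 of 95 genes were tested. With treatment of wild type cells 19 rose and 5 fell (35.8%, against 24.5% of all genes). The store calcium buffers, which hold calcium within the endoplasmic reticulum and Golgi and include chaperones that fold proteins there, had the largest share of higher genes among the lists: 9 of 11 rose, against 11.5% of all genes, with a median log2 fold change of 0.58. Leaving out any 1 library left 8 or 9. HSP90B1, the chaperone GRP94, rose by 0.78 ± 0.09 (1.72-fold, adjusted p = 2.93e-05), RCN1, a reticulocalbin, by 0.71 ± 0.11 (adjusted p = 0.000279), and NUCB1, a Golgi nucleobindin, by 0.58 ± 0.09 (adjusted p = 0.000322). In VDR KO cells edgeR called none of the 11 buffers, against 2.55% of all genes, and the median was -0.23. Of the 11, 5 had an unadjusted p below 0.05, DESeq2 called 1 lower and limma none. Without untreated wild type replicate 3, 6 of the 11 fell in VDR KO cells. Over all genes that refit called 1340 of 14795 lower and 1025 higher, against 240 and 134 of 14676 in the main fit. The library left out is in neither VDR KO group, and bears on them through the low-count filter, the scaling and the shared spread.

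Of the partners of store-operated entry, 5 of 9 rose and 1 fell in treated wild type cells, against 11.5% of all genes higher and 13% lower. Over fits that left out 1 library, 3 to 5 rose, and without untreated wild type replicate 3 the counts were 4 higher and 0 lower. The gene that fell, TRPC1, named after its value was seen, was called in 2 of 12 such fits and by neither DESeq2 nor limma. EFCAB4A, a calcium-binding regulator of ORAI channels, rose by 0.87 ± 0.14 (1.82-fold, adjusted p = 0.000371), ORAI3, a relative of ORAI1, by 0.66 ± 0.14 (1.58-fold, adjusted p = 0.00305) and STIM2, a relative of STIM1, by 0.43 ± 0.09 (1.35-fold, adjusted p = 0.00353). STIM1 and ORAI1 themselves did not pass. Among other release channels PKD2, a polycystin, rose by 0.53 ± 0.14 (adjusted p = 0.0119) and TPCN1, a lysosomal channel, by 0.30 ± 0.07 (adjusted p = 0.00398), while TPCN2 fell by 0.20 ± 0.07 (adjusted p = 0.0436), a call kept in 3 of 12 fits that left out 1 library. Of the genes that make or handle IP3, 2 of 14 were called (14.3%, against 24.5% of all genes): 1 rose (PLCG1, 0.35 ± 0.07, adjusted p = 0.00182) and 1 fell (PLCE1, -0.64 ± 0.13, adjusted p = 0.00172). Of the mitochondrial calcium genes SLC24A6, a mitochondrial sodium-calcium exchanger, rose (0.25 ± 0.08, adjusted p = 0.0254), and was not called without untreated wild type replicate 3 (0.19, adjusted p = 0.0565). Of 5 plasma membrane genes 1 rose and 1 fell, against 11.5% of all genes higher and 13% lower. TRPM4 rose (0.32 ± 0.07, adjusted p = 0.00400) and the sodium-calcium exchanger SLC8A1 fell (-0.75 ± 0.20, adjusted p = 0.0126). SLC8A1 was not called without untreated wild type replicate 3 (-0.53, adjusted p = 0.0637). None of 13 calmodulin, calcineurin and NFAT genes was called by edgeR, DESeq2 or limma, and none had an unadjusted p below 0.05. Without untreated wild type replicate 3, 1 of the 13 was called lower. The only other pump tested, ATP2C2, did not pass (-0.11).

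In VDR KO cells 1 of the 67 genes was called with treatment, SLC9A3R1, a scaffold protein named after its value was seen, which fell by 0.42 on the log2 scale (adjusted p = 0.0472), against 2.55% of all genes called. Without untreated wild type replicate 3 there were 4 higher and 12 lower, while calls over all genes also grew, to 1025 higher and 1340 lower of 14795. Between untreated genotypes 14 rose and 30 fell in VDR KO cells (65.7%, against 69.7% of all genes). Without untreated wild type replicate 3 the counts were 19 higher and 31 lower. Over all genes that refit called 5447 of 14795 higher and 5259 lower. ORAI2, another relative of ORAI1, fell by 2.21 ± 0.23 (4.63-fold lower, adjusted p = 1.06e-06). PLCB2, a phospholipase C, fell by 2.75 ± 0.21 (adjusted p = 4.98e-09), while PLCE1 rose by 1.83 ± 0.11 (3.56-fold, adjusted p = 3.72e-10). The transcription factor NFATC1 fell by 2.02 ± 0.23 (adjusted p = 7.80e-07) and the kinase gene CAMK2D by 1.43 ± 0.12 (adjusted p = 1.89e-08). TRPV6, an entry channel of calcium-absorbing epithelia, rose by 2.11 ± 0.31 (4.3-fold, adjusted p = 1.18e-05). Its counts were low, at 36 to 55 in untreated VDR KO and 5 to 9 in untreated wild type libraries, so the size of this fold is uncertain. Of 9 mitochondrial genes 2 rose and 4 fell, against 35.5% of all genes higher and 34.2% lower. Without untreated wild type replicate 3, 4 rose and 4 fell. Among these VDAC1, an outer membrane channel, fell by 0.85 ± 0.08 (adjusted p = 4.17e-08), MCU, the pore of the mitochondrial uniporter, rose by 0.78 ± 0.07 (adjusted p = 5.79e-08), and LETM1, an inner membrane protein, fell by 0.85 ± 0.12 (adjusted p = 8.29e-06). Of the 11 store buffers 1 rose and 6 fell, against the same shares of all genes (35.5% higher and 34.2% lower). Without untreated wild type replicate 3, 1 rose and 8 fell. Among the lower buffers in the main fit was SDF4, the Golgi protein Cab45 (-1.13 ± 0.11, adjusted p = 8.90e-08). Between treated genotypes 17 of the 67 rose and 37 fell (80.6%, near the 75.9% of all genes called), and 9 of the 11 store buffers were among the lower genes, against 37.4% of all genes.

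**Figure D5:**
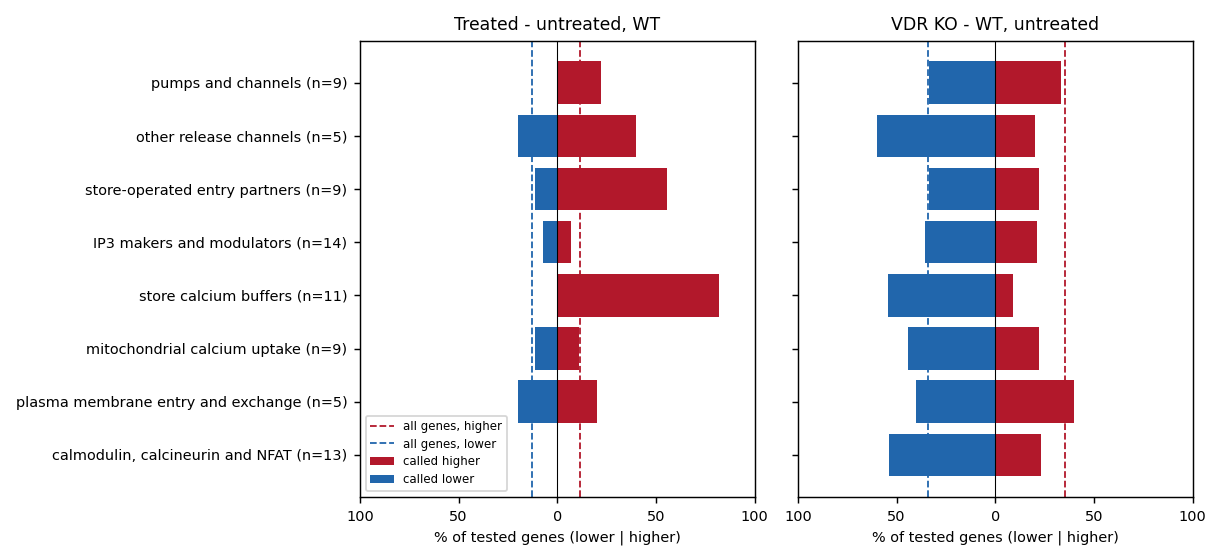
Percent of tested genes called higher (red, to the right) and lower (blue, to the left) in the 9 members and in 7 lists of calcium handling genes, for treatment in wild type cells and for VDR KO against wild type without treatment. Dashed lines are the shares over all genes (11.5% and 13%, then 35.5% and 34.2%), and the store calcium buffers have the longest red bar, 9 of 11, in treated wild type cells.

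By profile across the 12 libraries, the genes most like each of 8 members were found by the root mean square (RMS) difference of log2 CPM after centring each gene on its mean, among 14167 candidates. ITPR1 was left out, its mean being below 1 CPM. ATP2A2 was nearest to SCARB2 (RMS difference 0.0612), ATP2B1 to IL6ST (0.0540) and GALNT7, ATP2B4 to RPRD1B (0.0640) and PML, and ATP2C1 to CBL (0.0543) and ZBTB44. ITPR2 was nearest to XPO4 (0.0504) and KANSL1, ITPR3 to KIFC3 (0.0552) and IFRD2, and ORAI1 to ZNF524 (0.0951) and TNRC18. STIM1 was nearest to MIR4687 (0.00960), with which it may share reads, and then to U2AF2 (0.0613). The median difference over all candidates was 0.335 to 0.825 for these members.

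In the authors' deposited table of gene ontology terms for genes higher in treated wild type cells, "calcium ion binding" held 54 of 862 listed genes, ATP2A2 among them (adjusted p = 3.26e-05). In the authors' deposited table for genes lower in treated VDR KO than treated wild type cells it held 176 of 4456 (adjusted p = 0.00103), among them ATP2A2, ITPR3 and STIM1. In the authors' deposited table for genes lower in untreated VDR KO cells it held 144 of 3423 (adjusted p = 0.000606), with ITPR3 and STIM1. In the authors' deposited table for genes lower in treated than untreated VDR KO cells, "calcium ion import" held 5 of 306 (adjusted p = 0.0276), and no member was among them.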

How the data were processed

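The authors deposited raw read counts per gene for 12 libraries and a second table of CPM, which equal each count divided by its column total to within 0.005. Their deposited gene ontology tables, per the file headers, hold an adjusted p-value for each term and, among other values, how many listed genes it contains. Reads were aligned with BWA 0.5.9 to build mm9, per the submitters' processing notes. That is a mouse build while every gene ID is human, and the sources used here do not give the build or counting tool behind these counts. Positions and exon lengths come from GENCODE v29 on GRCh38.

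Tests used edgeR 4.0.16 (R 4.3.3). After filterByExpr, 14676 genes remained and 1595 were set aside. TMM factors ran from 0.950 to 1.06. A group-means model of all 12 libraries gave robust quasi-likelihood F tests at a common dispersion of 0.0117. The SE is approximate: the absolute log2 fold change over the root of F. Alternatives included DESeq2 1.42.0 and limma 3.58.1 on the deposited CPM as log2 (pseudocount 1). The script was tested on simulated counts. The samples' labels gave the groups. Genes named from the lists are the called ones with the smallest adjusted p, at most 3 per list, and some genes that meet the rules for named genes are not reported here. The members and lists were chosen with earlier results of these data known.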

Additional observations from a re-analysis of the deposited data

Results flagged for a closer look

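For 3 of the 9 genes (33.3%) the response to treatment differed between genotypes by the test of the difference itself, near the 26.3% of all genes called. The test was edgeR's quasi-likelihood F test with Benjamini-Hochberg adjustment (VDR KO minus wild type on the log2 scale, 3 libraries in each group). ATP2B4 gave -0.34 (adjusted p = 0.0326), ITPR2 gave 0.39 (adjusted p = 0.0291) and ATP2A2 gave -0.27 (adjusted p = 0.0496). In 12 fits that left out 1 library each, their adjusted p ranged from 0.0101 to 0.0914 for ATP2B4, from 0.0157 to 0.0871 for ITPR2 and from 0.0263 to 0.115 for ATP2A2.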

How the results depend on the processing

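Of 891 alternative fold changes of the 9 genes, 828 kept their direction and their side of the threshold, 37 lost the call, 7 gained it and 19 changed sign, all of them uncalled. The sign of ATP2A2 between untreated genotypes turned with library size alone (0.0047) and with limma (0.0046), as did that of ATP2C1 in the difference of responses with limma (-0.0030). Over fits without 1 library, values ran from -0.43 to 0.40 for ITPR1 with treatment in VDR KO cells, and in the difference of responses from -0.0663 to 0.0724 for ATP2C1, from -0.26 to 0.57 for ITPR1 and from -0.147 to 0.0875 for ORAI1. Of the members called with treatment in wild type cells, 1 rose with the compared groups alone, and 0 to 1 fell without 1 library. In the difference of responses 0 to 1 were higher and 0 to 2 lower without 1 library, and 1 was lower with DESeq2's size factors. The listed genes called with treatment in VDR KO cells numbered 1, against 2 with library size alone, 11 with the compared groups alone, 4 with DESeq2, 2 with limma and 0 to 16 without 1 library, where 16 came without untreated wild type replicate 3. Over all genes that comparison gave 374 calls, against 1775 with the compared groups alone, 907 with DESeq2 and 9 to 2365 without 1 library, and treatment in wild type cells gave 3602 against 2218 with the compared groups alone and 2112 to 3795 without 1 library. Library size alone moved the median log2 fold change over all genes to 0.13 in both genotype comparisons, and the untreated calls to 6224 higher and 4085 lower, against 5207 and 5019. Replicate numbers did not pair the samples (correlations of same-numbered deviations from -0.175 to 0.121, and the same number correlated best in 2 of 12 checks over the treatment and genotype comparisons). With the replicate block, 0 members were lower in the difference of responses, 0 listed genes and 143 of all genes were called in VDR KO cells, and the untreated genotype difference of ATP2C1 lost its call (adjusted p = 0.0551).

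Depth limited ITPR1, and 3 libraries a group limit every comparison. Untreated wild type replicate 3 bears most on the treatment changes of ITPR3, ITPR2 and ORAI1 in wild type cells. By the longest transcript, an alternative chosen for the shares after seeing the data, ITPR3 made up 57.9% and 62.2% of its family in treated and untreated VDR KO cells, against 88.5% and 83.5% in treated and untreated wild type cells, and 13 of 36 ranks per kilobase moved. The deposited CPM moved 13 of 36 group levels by over 1 SD. Genotype and clone cannot be told apart, and the part of strand and of shared exons in the counts was not tested.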
